A study of Mus musculus with 2 samples.

Results

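Carbonic anhydrase transcripts were compared between 2 three-dimensional skin models, 1 labelled Itih5 knockout and 1 wildtype, each measured on 1 array. Per the labels, both were built from keratinocytes and fibroblasts of adult mouse skin, both carry a mark of 7 days in their titles, and the mice were untreated. The cells were passaged until they grew without collagen support, so both groups are models of long-cultured cells rather than of fresh skin. Neither the part of Itih5 that was removed nor the number of animals behind each model is stated in the labels. Because each genotype has a single array, no difference can be set against a spread between replicates, and none was tested. The number of arrays limits the precision. Differences are log2 intensity of the knockout minus the wildtype model, and where a pair of intensities is given as one against the other, the knockout value comes first.

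The members are the carbonic anhydrase genes Car2, Car3, Car4, Car5b, Car6, Car8, Car9, Car12, Car13 and Car14. They were chosen by gene family with earlier values of the same 2 arrays in view, so their differences are a description and support nothing on their own. A member counted if a probe set, the array's unit of measurement, was annotated to it and to no other gene. This held for 9 of the 10 listed genes, on 11 probe sets, out of 20841 genes with a usable value. Car14, which encodes a transmembrane enzyme, shared its 1 probe set with Aph1a. That probe set read 40.4 against 41.9 and was not counted.

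Carbonic anhydrases are zinc enzymes that convert carbon dioxide and water into bicarbonate and a proton, and back. The family is divided by place: enzymes of the cytosol, of mitochondria, of secretions, and of the outer face of the cell membrane, where they set the pH at the cell surface together with bicarbonate, proton and lactate transporters. A few relatives have lost the zinc site and do not catalyse the reaction. CAR9 and CAR12 are also known for their rise in cells short of oxygen, and CAR2 and CAR12 for roles in fluid secretion.

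The deposited intensities had lost their decimal point, which was put back from the digits. For 10 of the 11 member probe sets only 1 pair of places was possible, and none of the 11 was undecided, that is, without a pair of places at a probability of 0.95 or more. A gene was called expressed if the higher of its values reached 47.9, the median over probe sets, and the background of the arrays, their 5th percentile, was 21.4 in each model. By this rule 6 of the 9 genes were expressed: Car4, Car5b, Car6, Car9, Car12 and Car13. Of all 20841 genes with a usable value, 59.8% were expressed, so nothing is read from this count. Car2, Car3 and Car8 lay below the threshold on both arrays, and 5 of the 6 expressed genes reached it on both.

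The 6 expressed genes did not move together. Car4 was far higher in the knockout model and Car13 was higher by just under 2-fold, while Car12 and Car5b read lower. At a threshold of 2-fold, 1 of the 6 was higher and 0 were lower. The same threshold was passed upward by 3.93% and downward by 3.35% of all 12460 expressed genes. At 1.5-fold, 2 members were higher and 1 was lower, beside 11.8% and 8.39% of expressed genes. The median difference of the 6 was -0.04, beside 0.04 for all expressed genes. It lies between the values of Car9 and Car6, both near background, and Car6 reached the threshold in the knockout model only. The median of the members changed sign with a stricter filter on low values (0.19) or with probe sets averaged (0.06). Since the members were picked with these values known, nothing is read from the counts.

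**Figure D1:**
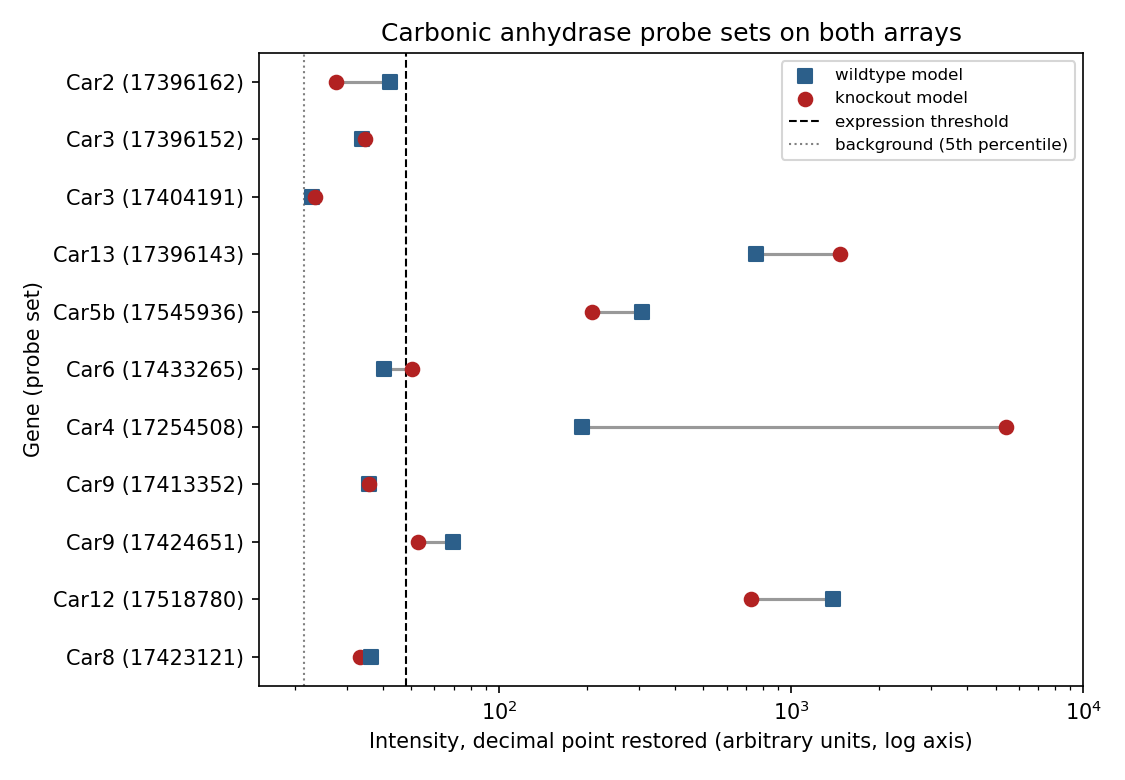
Intensity (log axis, arbitrary units) of the 11 carbonic anhydrase probe sets in the knockout model (circles) and the wildtype model (squares), 1 array each, with the expression threshold of 47.9 (dashed) and the background of 21.4 (dotted). Car4 spans 192 to 5434, Car13 and Car12 point in opposite directions, and 5 probe sets, of Car2, Car3, Car8 and 1 of Car9, stay left of the threshold on both arrays.

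The membrane-bound enzymes held both the largest difference and the clearest opposite one. Car4 encodes an enzyme held on the outer membrane face by a lipid anchor. Its probe set (17254508, Entrez 12351) gave an intensity of 5434 for the knockout and 192 for the wildtype, a difference of 4.82, or 28.2-fold. Both values were above the threshold, at 254 times and 8.97 times the background. No other expressed gene with a decided point differed by as much in this direction. The next, Plac8, stood at 4.03.

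Car12, the gene of a transmembrane enzyme with its active site outside the cell, went the other way. Probe set 17518780 (Entrez 76459) had intensities of 730.2 against 1389.7, a difference of -0.93, or 1.90-fold lower. It therefore lay just inside 2-fold. Of the other expressed genes, 3.90% were at least as far down, and of the 757 at a like mean level (within 0.5 log2), 4.62%.

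Car9, whose transmembrane enzyme is best known as a hypoxia marker, was near the background in both models. Its probe set 17424651 (Entrez 230099) gave 52.9 against 69.5, a difference of -0.39, at 2.48 and 3.24 times the background. A further probe set of the gene, 17413352, read 35.9 on both arrays, below the threshold. The 2 probe sets thus disagreed on whether the gene is expressed, and neither was 1.5-fold apart. Of the other expressed genes, 14.1% were at least as far down as -0.39.

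The sequences before the start sites of these 3 membrane-bound genes are shown because they hold the largest difference in each direction and the family's hypoxia marker. Each is the 250 bases upstream of the RefSeq start on assembly GRCm38.p6, on the gene's own strand. They lie at chr11:84957504-84957753 for Car4, chr9:66713436-66713685 for Car12 and chr4:43506776-43507025 for Car9, all on the plus strand. Capitals mark ACGTG or GCGTG, the core letters of a hypoxia response element, and TGANTCA, an AP-1 site, searched on both strands.
Car4: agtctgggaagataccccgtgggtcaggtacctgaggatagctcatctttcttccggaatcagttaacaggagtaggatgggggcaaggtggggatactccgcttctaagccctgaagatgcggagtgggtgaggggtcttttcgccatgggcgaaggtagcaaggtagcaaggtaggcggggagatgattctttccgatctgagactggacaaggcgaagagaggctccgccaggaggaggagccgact
Car12: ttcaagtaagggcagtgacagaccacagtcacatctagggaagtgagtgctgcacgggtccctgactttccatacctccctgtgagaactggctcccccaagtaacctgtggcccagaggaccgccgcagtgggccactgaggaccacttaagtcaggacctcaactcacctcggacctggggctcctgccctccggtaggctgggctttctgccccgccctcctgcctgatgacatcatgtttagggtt
Car9: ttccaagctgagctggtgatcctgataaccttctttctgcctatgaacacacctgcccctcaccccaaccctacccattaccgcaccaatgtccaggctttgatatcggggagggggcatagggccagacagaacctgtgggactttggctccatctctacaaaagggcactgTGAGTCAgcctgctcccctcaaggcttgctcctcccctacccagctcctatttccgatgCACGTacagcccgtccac
Within these windows only Car9 held a match. ACGTG lay on the opposite strand, 14 to 18 bases before the start, and TGANTCA on the gene's strand, 71 to 77 bases before it, with no overlap between them. Of 32851 mouse promoter windows of the same length, 38.6% held ACGTG or GCGTG and 6.7% held TGANTCA. These matches describe letters, and a window without one says only that the letters are not there. Of the other members, Car5b held 5 copies of GCGTG and Car6 held ACGTG on both strands of a single CACGTG. Car14, listed but without a probe set of its own, held ACGTG on the opposite strand, 3 to 7 bases before its start. Car2, Car3, Car8 and Car13 had no entry in the promoter table.

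**Figure D2:**
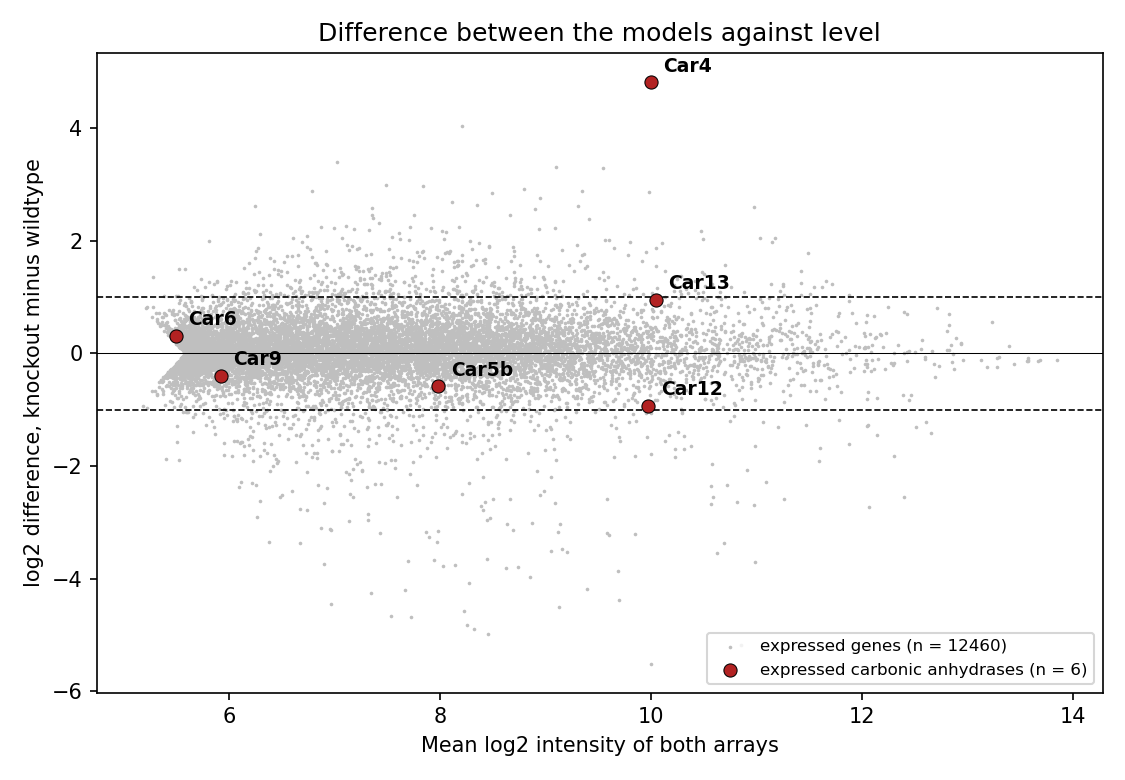
Difference between the models (log2, knockout minus wildtype) against mean log2 intensity for 12460 expressed genes (grey) and the 6 expressed carbonic anhydrases (red), with dashed lines at 2-fold. Car4 stands above every other gene at 4.82, Car13 and Car12 lie just inside the lines, and Car6 and Car9 sit at the low end of the level axis.

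Of the cytosolic members only Car13 was expressed. Car13 encodes a cytosolic enzyme found in many tissues. Probe set 17396143 (Entrez 71934) gave 1469 against 758, a difference of 0.95, or 1.94-fold higher. This was just under the 2-fold threshold. Of the other expressed genes, 4.44% were at least as far up, and of the 729 at a like mean level, 6.72%.

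Car2, the gene of a fast and widespread cytosolic enzyme, was below the threshold on both arrays. Intensities on its probe set (17396162, Entrez 12349) were 27.6 against 42.2, close to background. No fold is drawn from these values. The log2 difference of -0.61 became -1.73 when the background was subtracted, a step chosen after seeing the data. Car3, the gene of a slow enzyme abundant in muscle and fat, read 34.8 against 33.8 on probe set 17396152 (Entrez 12350) and 23.4 against 22.9 on probe set 17404191. The first of these was the 1 member probe set with a second possible place of the point, which would make the knockout value 348, and that place had a probability of 0.00079.

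The mitochondrial enzyme gene Car5b read lower in the knockout model. Probe set 17545936 (Entrez 56078) gave 207 against 309, a difference of -0.58, or 1.49-fold. Both values were well clear of the background, at 9.68 and 14.4 times its level. Among the other expressed genes 8.56% were at least as far down, so a difference of this size was common on these arrays. Car6, the gene of the secreted enzyme of saliva, barely passed the threshold and did so in the knockout model only. Its probe set (17433265, Entrez 12353) read 50.1 against 40.3, and with the wildtype value under the threshold no fold is given. Car8, the gene of a relative without enzyme activity, read 33.4 against 36.3 (17423121, Entrez 12319), below the threshold on both arrays.

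The other family genes on the array showed no large difference. Car1, Car7, Car10, Car11 and Car15 had probe sets of their own, with intensities from 28.6 to 74.8 and differences from -0.42 to 0.13. Of these 5 genes, 3 were expressed, beside 59.8% of all genes. They were the cytosolic Car7 (56.9 against 61.6), the catalytically inactive relative Car11 (67.3 against 74.8) and the membrane-bound Car15 (52.3 against 59.2). Car7 had a second possible pair of places, at a probability of 0.00125. The mitochondrial Car5a shared its probe set with BC048644, which read 44.9 against 50.2.

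None of the genes beside Car4, Car13, Car12 and Car5b was 2-fold apart, but such a difference was rare on these arrays. Only 3.93% of all expressed genes passed 2-fold upward and 3.35% downward. Some neighbours, Car2 among them, lay below the expression threshold in both models. Without that filter the numbers of genes passing stayed at 490 and 418, so genes below it added none. With so few neighbours, nothing is read from the absence. In RefSeq's order of protein-coding genes on GRCm38.p6, Car4 lies between Znhit3 and Usp32. Znhit3 read 61.1 against 47.0 and Usp32 559 against 540.2. Car13 is followed by Car1, Car3 and Car2, and all 3 were below the threshold in both models. On its other side Rbis read 2089 against 1715, a difference of 0.28. Car12 lies between Usp3 (392 against 479) and Aph1b (137 against 129.6), with differences of -0.29 and 0.08. In all, 16 neighbours had a value, with Aph1c (193 against 116) furthest up at 0.73 and Car2 furthest down.

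**Figure D3:**
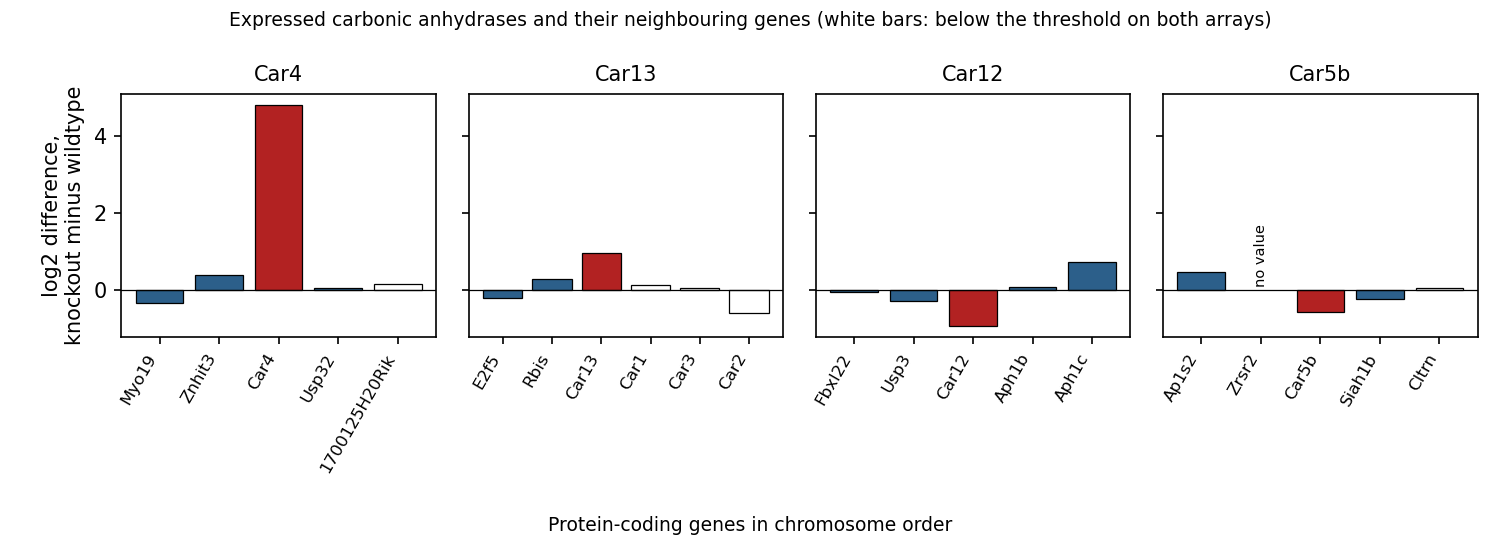
Difference between the models (log2, knockout minus wildtype) for Car4, Car13, Car12 and Car5b (red) and the protein-coding genes on either side in RefSeq order (blue where expressed, white where below the threshold on both arrays). The Car4 bar reaches 4.82, while its neighbours lie between -0.35 and 0.38. Zrsr2 had no probe set of its own.

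Genes of transporters that work with these enzymes were described as well. Of 9 expressed bicarbonate transporter genes, 1 was at least 2-fold higher and 0 were lower, beside 3.93% and 3.35% of all expressed genes. The median of the 9, 0.29, turned to -0.28 under the stricter filter. The 1 gene was Slc4a8, a sodium-driven chloride-bicarbonate exchanger, with 101 against 41.4, the latter under the threshold. Slc4a4, the sodium bicarbonate cotransporter gene, read 125 against 103. Slc4a2, an anion exchanger gene, read 219 against 162. Slc4a7 had no probe set of its own.

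Of 9 expressed proton and lactate transporter genes, 1 was at least 2-fold higher and 0 were lower, beside 3.93% and 3.35% of all expressed genes. The median of the 9, 0.41, fell to 0.05 when only rows with 1 possible place of the point were used. The 1 gene was Emb, which encodes embigin, a chaperone of lactate carriers, with 851 against 349 (2.44-fold, 2 possible pairs of places). The lactate carrier gene Slc16a1 read 1425 against 931, Slc16a3, that of the glycolytic carrier, 79.6 against 53.4, and the chaperone gene Bsg 4115 against 3738. None of 18 expressed subunit genes of the V-type proton pump was 2-fold apart (median 0.05). With so few of all expressed genes passing 2-fold (3.93% upward, 3.35% downward), nothing is read from this absence. Of 7 acid-sensing genes with a value, Gpr132 was the only one expressed, at 35.0 against 51.9.

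Genes induced by low oxygen were described because Car9 and Car12 belong to that response. Of 31 such genes with a probe set of their own, Car9 and Car12 left out, 24 had a decided point and all 24 were expressed. Their median was 0.01. At least 2-fold higher were 3 genes, and 0 were lower, beside 3.93% and 3.35% of all expressed genes. From lists this short nothing is read from the counts. The 3 were the mitophagy gene Bnip3 (505 against 147, 3.44-fold), the lysyl oxidase gene Lox (4498 against 1989, 2.26-fold) and the collagen prolyl hydroxylase gene P4ha2 (246 against 109.5, 2.24-fold), each with 2 possible pairs of places. The growth factor gene Vegfa read 703 against 481. Slc2a1, the glucose transporter gene, read 1922 against 2338, and Ldha, the lactate dehydrogenase gene, 322 against 299. Of the regulators, Hif1a read 2850.0 against 3291 and Epas1 was undecided. Of 7 expressed regulators 1 was at least 2-fold higher and 0 were lower, beside 3.93% and 3.35% of all expressed genes. The 1 gene was Arnt2 (102 against 48.2). Its wildtype value lay just above the threshold of 47.9. Hif3a, at 143 against 72.1 (1.99-fold), fell just short of 2-fold.

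**Figure D4:**
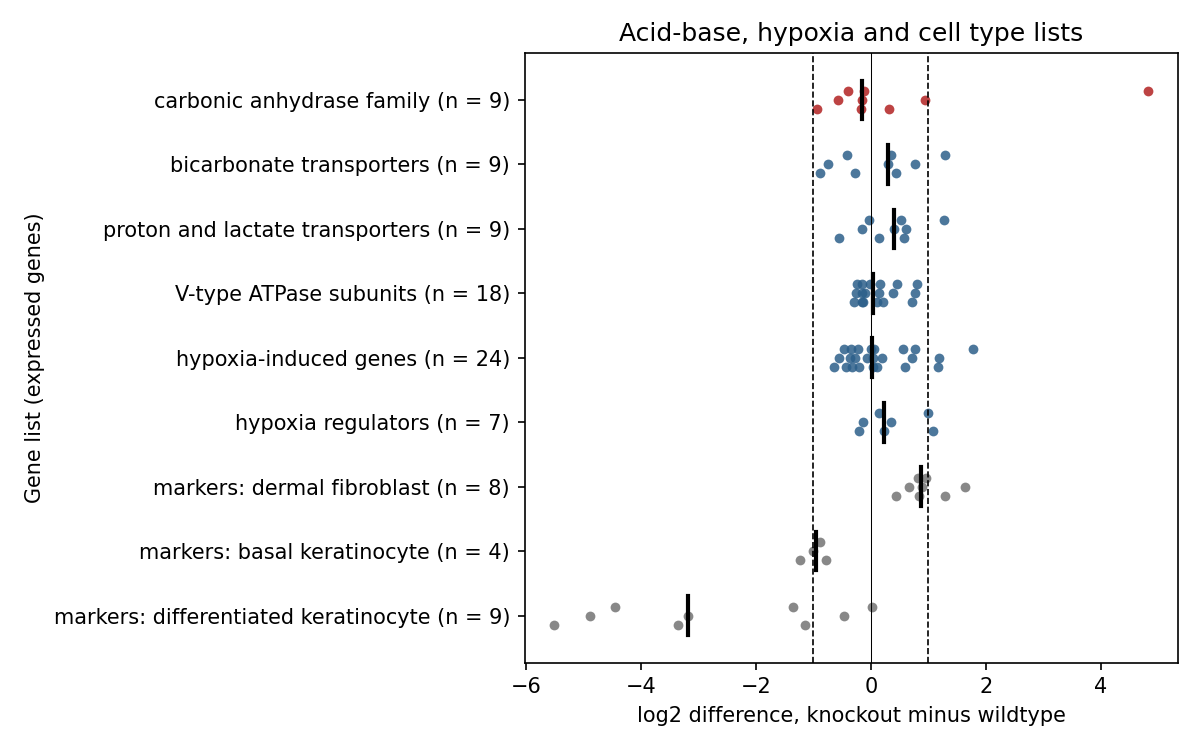
Difference between the models (log2, knockout minus wildtype) for each expressed gene (points) of the carbonic anhydrase family, of acid-base and hypoxia lists and of cell type markers, with a bar at each median and dashed lines at 2-fold. The carbonic anhydrase family, here 9 genes with Car7, Car11 and Car15 included, holds Car4 at 4.82 far from its other points, while fibroblast markers lie above 0 and keratinocyte markers mostly below.

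Markers of the 2 cell types in the models moved in opposite directions beside these results. Of 12 fibroblast markers 10 had a decided point and 8 were expressed. These 8 read higher in the knockout model (median 0.87, beside 0.04 for all expressed genes, summed intensity 13886 against 7509.7), among them Col1a1 with 2145 against 876. The other 2, Lum (24.6 against 30.9) and Fap (29.0 against 36.0), lay below the threshold and read lower, and Pdgfrb and Prrx1 were undecided. Of 6 basal keratinocyte markers that had their own probe set, 4 had a decided point, and these were expressed and read lower (median -0.95, 5581 against 12301), as did 8 of the 9 expressed among 11 differentiated keratinocyte markers (median -3.19, 1434 against 12799). Fewer cells of a type and less RNA per cell cannot be told apart in such bulk RNA. The part of this shift in the differences of Car4, Car12, Car13 and Car5b was not tested.

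Markers of other cell types were expressed in part and differed in both directions. Over all genes with a usable value, 59.8% were expressed. The endothelial genes Pecam1 (41.0 against 38.3) and Cdh5 (38.7 against 45.0) were below the threshold in both models. Kdr read 87.4 against 36.1, the latter under the threshold. In all, 2 of 6 endothelial markers were expressed (summed 162 against 92.1). Of 6 adipocyte markers 3 were expressed (5550.2 against 1263), with Fabp4 at 4974 against 816 and Adipoq below the threshold. Of 6 melanocyte markers 4 were expressed (1289.6 against 447), with Mlana at 705 against 109 and Mitf at 464 against 215. Of the other expressed ones, Pmel read 69.2 against 56.5 and Sox10 was lower, at 51.3 against 66.4. Tyr and Dct lay below the threshold on both arrays. Sebocyte and sweat gland markers were expressed in 5 of 9 (620.1 against 399.7). Scd3, Mc5r, Awat1 and Awat2 lay below the threshold on both arrays. Of the expressed ones, Krt8 (276 against 109), Krt18 and Krt79 read higher, while Krt7 and Aqp5 read lower. Krt79 (51.8 against 33.0) reached the threshold in the knockout model only. Macrophage and Langerhans cell markers were expressed in 2 of 5 (1013 against 1365), namely Cd68 (861 against 1161) and Lyz2 (151 against 203). Adgre1, Csf1r and Cd207 lay below the threshold on both arrays, and Ptprc was undecided. Skeletal muscle markers were expressed in 4 of 6 at intensities up to 66.9 (199 against 233), and erythroid markers in 0 of 2. Their part in the carbonic anhydrase values was not tested.

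Itih5, the gene named by the genotype, gave 30.4 against 29.8 on its 1 probe set, close to background in both models, so the labels cannot be checked by it.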

How the data were processed

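RNA of 2 skin models was measured on 1 array each. Per the labels' protocols, total RNA was amplified to sense-strand cDNA and labelled with an Affymetrix kit. How the authors summarised and normalized the probes is not given in the sources. The deposited values are intensities on a linear scale, but 67457 of 67586 had lost their decimal point. Values with up to 2 decimals had kept it.

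A place of the point was possible if it gave at least 3 decimals, an intensity between 18 and 20000, and a single-precision number that is 2 raised to a single-precision exponent. On both arrays 1 place was possible for 21121 of 33793 probe sets (62.5%). For the others, the likeliest pair under the joint distribution of level and difference (25 rounds of expectation maximisation) was kept at a probability of at least 0.95. This restored 31905 probe sets (94.4%) and left 1888 undecided. By these probabilities, 50.0 of the restored probe sets are expected to be misplaced. The restored columns had medians of 46.3 and 46.8, so no further normalization was applied.

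Gene names came from the platform annotation: 23521 probe sets had 1 symbol, 1814 several, and 8458 none here. Where a gene had more than 1 probe set, that with the higher mean stood for it. Genes were compared by fold, with no test and no p-value. The text names every carbonic anhydrase on the array, up to 4 genes per list and direction at least 2-fold apart, and a few transporters and hypoxia genes listed with the rule. Neighbouring genes, Plac8, Hif3a and the cell type markers in the text were named after their values were seen. Promoter sequences and gene order came from RefSeq (GRCm38.p6). The members and lists were chosen with earlier results of these data known. Python 3.11.15, numpy 2.4.6, pandas 2.3.3 and scipy 1.17.1 were used.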

Additional observations from a re-analysis of the deposited data

How the results depend on the processing

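No paired analysis was possible because a genotype is a single array, which also allows no array to be omitted. The alternatives were a minimum probability of 0.99, rows with 1 possible place only, every row at its likeliest place, quantile normalization, a pseudocount of 16, no filter or a stricter one (intensity 168), the mean over probe sets, and thresholds of 1.5-fold and 3-fold. Subtraction of the 5th percentile as background was chosen after seeing the data.

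Car4 ranged from 4.71 to 4.98 over its 7 alternatives, Car13 from 0.94 to 0.98, Car12 from -0.95 to -0.91 and Car5b from -0.63 to -0.55. Each of these genes had 1 probe set with 1 possible pair of places. The alternatives on probability, on places and on averaging probe sets therefore could not move them. Only quantile normalization, the pseudocount and the background subtraction could. Of 97 values of single carbonic anhydrases under alternatives, many of them fixed in this same way, 5 moved by more than 0.2 log2 and 0 changed sign. All 5 came from subtracting the background, which gave 0.36 for Car1, -1.73 for Car2, 0.61 for Car6, -0.61 for Car9 and -1.21 for Car10. These are genes near background, where depth of signal limits any statement.

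At 1.5-fold, 2 carbonic anhydrases were higher and 1 was lower. The median of the carbonic anhydrases became 0.19 under the stricter filter, which left 4 genes, and 0.06 with the mean over probe sets. Genes at least 2-fold higher and lower numbered 490 and 418. By construction of the threshold they became 1467 and 1046 at 1.5-fold and 129 and 183 at 3-fold. With 1 possible place only, a setting that keeps fewer probe sets, 312 were higher, and with the background subtracted 821. The hypoxia-induced median turned from 0.01 to -0.07 at a probability of 0.99, to -0.21 with 1 place only and to -0.04 under the stricter filter. The bicarbonate transporter median turned from 0.29 to -0.28 under that filter, and the V-type ATPase median from 0.05 to -0.01 at likeliest places. The proton and lactate transporter median of 0.41 became 0.05 at a probability of 0.99 and with 1 place only, and 0.13 with no filter. The acid-sensing median of -0.57, which rests on 1 gene, became -0.04 with no filter and -1.16 after subtraction. Where no construction is named, the cause was not tested.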
